A study of Mus musculus with 6 samples.

Results

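The protein genes of the cytosolic ribosome and the noncoding host RNAs of small nucleolar RNAs (snoRNAs) were followed across 6 expression arrays of mouse cerebral cortex. Members were all probe sets with 1 gene symbol on the platform that began with Rpl or Rps, without the Rps6k kinases and the pseudogenes ending in -ps, together with Zfas1, Gas5 and every Snhg symbol. They came to 66 of 18193 named genes and to 137 of 34945 probe sets with 1 symbol. Of these, 50 genes with 106 probe sets carried ribosomal protein symbols and 16 genes with 31 probe sets were host RNAs. The rule left out 11 probe sets of Rps6k kinases and 1 pseudogene. It also admitted Rps19bp1, which encodes a protein that binds Rps19 and is no subunit of the ribosome. A further 107 probe sets listed several symbols with 1 ribosomal protein gene among them and are no members, and 25 ribosomal protein genes had only such probe sets.

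RNA on 3 arrays carried the label wild type, and RNA on the other 3 was labelled as a double knockout of Egr1 and Egr3, which encode zinc finger transcription factors that neurons induce with activity. The labels give no strain, sex, age, treatment, allele design or protocol, and since they do not tell whether separate animals were used, p-values cover only the spread among these arrays. Egr3 signals were 1189, 2670 and 924 on the wild type arrays and 339, 370 and 507 on the others, which is -1.80 on the log2 scale with an SE of 0.320 (limma adjusted p = 0.0361). Egr1 went against the label, with 1247, 2054 and 1430 on the wild type arrays and 2117, 2647 and 2657 on the others (log2 difference 0.67, SE 0.175, limma adjusted p = 0.108), and the deposited values do not say which part of the transcript its probes read. The groups are therefore written as wild type and as arrays labelled double knockout, and every direction below rests on those labels. Differences are the labelled double knockout minus wild type, fitted on log2(signal + 16). A probe set passed the test at a Benjamini-Hochberg adjusted p under 0.05 over the 22518 probe sets whose mean log2 signal lay above the median of all.

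A few facts of the arrays bear on the results. The median signal per array ran from 36.2 to 39.5 units, and precision is limited by how few arrays there are. The Xist signal of labelled double knockout replicate 2 was 3140 and that of the Y chromosome gene Eif2s3y was 0.63, as in a female. On the other arrays Xist read 12.6 to 42.5 and Eif2s3y 383 to 609, as in males. By these signals the wild type arrays were all male and the labelled double knockout arrays were mixed. Spiked controls of wild type replicate 1 lay at 0.430 of their median over all arrays. Ttr, the transthyretin gene that choroid plexus expresses at high levels, read 10347 on wild type replicate 3 and 4697 on labelled double knockout replicate 1, and between 34.6 and 375 on the other 4 arrays. The choroid plexus markers Folr1 and Clic6 were high on wild type replicate 3 alone, at 245 and 110. On labelled double knockout replicate 1 they read 29.8 and 30.6, so there Ttr was not matched by these markers. For Gapdh, the signal near the 3′ end over that near the 5′ end, a sign of RNA integrity, was 0.842, 0.806 and 0.873 in wild type against 0.922, 0.950 and 0.881 in the labelled double knockout, without overlap. The same ratio for Actb was 1.57, 1.67 and 1.95 against 1.89, 1.68 and 1.75, with overlap. In whole tissue, fewer cells of a type and less RNA per cell cannot be told apart.

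Ribosomal proteins assemble with ribosomal RNA into a small subunit, which reads the messenger RNA, and a large subunit, which joins amino acids and carries a flexible stalk that recruits elongation factors. Their messages mostly begin with a run of pyrimidines, the 5′ terminal oligopyrimidine (TOP) tract, through which mTORC1 signalling and the protein Larp1 set their translation. The host RNAs carry in their introns snoRNAs that guide the chemical modification of ribosomal RNA. Several of their spliced transcripts also begin with such a tract and are degraded while they are translated. Neurons depend on this machinery in the cell body and near synapses.

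Sequence around the transcript start is shown first, because the list is defined by gene symbol and the start is where the pyrimidine tract lies. RefSeq windows of assembly GRCm38.p6, from 250 bases before to 50 bases after each start, matched 58 of the 66 member genes. The letters CTTTC, a stretch typical of the tract, were looked for on the transcript strand from 20 bases before to 50 bases after the start. They stood in 19 of 44 ribosomal protein genes (43.2%), in 3 of 14 host genes (Gas5, Snhg12 and Snhg16), and in 10.4% of all 27025 genes in the table. The letters CCGGAAG, bound by Ets family factors, stood on either strand of the whole window in 21 of 44 ribosomal protein genes (47.7%), 2 of 14 host genes and 9.93% of all genes. The Egr letters GCGTGGGCG or GCGGGGGCG stood on either strand in 6 of 44 ribosomal protein genes (Rpl12, Rpl27a, Rpl7a, Rps2, Rps24 and Rps27l), in 2 of 14 host genes (Snhg18 and Zfas1) and in 3.93% of all genes. The letters GCGGGGGCG overlap the GC box letters GGGGCG, so they also occur where a GC box stands. A match is a run of letters in a window and was not measured as binding. Other runs of pyrimidines were not searched, so a gene without CTTTC may still have the tract.

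Zfas1 is printed whole, since its transcript gave the largest difference of the list that passed the test, with the reverse complement of an Egr sequence in capitals (chr2:167062684-167062983, plus strand). The other windows run from 60 bases before to 30 bases after a start. Rplp0 is the ribosomal protein that passed (chr5:115559407-115559496, plus strand) and has no capitals because none of the letters searched stood in this stretch. Gas5 (its second start, chr1:161035106-161035195, plus strand) and Rpl38 (chr11:114668520-114668609, plus strand) show CTTTC, and only CTTTC, in capitals at the start of a host and of a ribosomal protein transcript. Rpl11 (chr4:136053364-136053453, minus strand) shows CCGGAAG in capitals, and Rps27l (chr9:66946026-66946115, plus strand) shows an Egr sequence and CCGGAAG. Rpl22l1 (chr3:28805448-28805537, plus strand) stands for the paralogs without any of these letters in the stretch, though a run of pyrimidines follows its start.
Zfas1: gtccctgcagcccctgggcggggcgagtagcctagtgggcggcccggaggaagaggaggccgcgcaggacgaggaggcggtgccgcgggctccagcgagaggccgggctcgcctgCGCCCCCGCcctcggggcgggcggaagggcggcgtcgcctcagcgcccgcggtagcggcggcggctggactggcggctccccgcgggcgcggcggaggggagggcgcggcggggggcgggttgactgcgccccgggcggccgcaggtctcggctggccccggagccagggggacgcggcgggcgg
Rplp0: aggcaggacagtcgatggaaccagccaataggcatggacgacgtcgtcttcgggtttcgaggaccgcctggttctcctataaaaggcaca
Gas5: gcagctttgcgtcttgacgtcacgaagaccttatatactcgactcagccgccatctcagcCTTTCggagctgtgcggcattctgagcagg
Rpl38: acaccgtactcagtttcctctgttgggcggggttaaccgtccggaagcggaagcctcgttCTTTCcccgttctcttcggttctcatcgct
Rpl11: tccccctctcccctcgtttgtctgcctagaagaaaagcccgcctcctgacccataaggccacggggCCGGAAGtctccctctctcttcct
Rps27l: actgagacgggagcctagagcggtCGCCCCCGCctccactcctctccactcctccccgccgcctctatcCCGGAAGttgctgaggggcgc
Rpl22l1: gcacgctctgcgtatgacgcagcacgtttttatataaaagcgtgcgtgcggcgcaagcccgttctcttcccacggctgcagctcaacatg

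Among the host RNAs, Zfas1 rose and no other host passed the test. Zfas1 is transcribed from the opposite strand beside the start of Znfx1 and carries snoRNAs of the Snord12 family. Its probe set read 371, 348 and 371 on the wild type arrays and 953, 753 and 1261 on the arrays labelled double knockout. The lowest labelled double knockout array, at 753, lay far above the highest wild type array, at 371. The fitted difference was 1.37 on the log2 scale with an SE of 0.162, a 2.59-fold rise (limma adjusted p = 0.0088). Of all 22518 probe sets tested, 1.02% passed the test, 0.426% higher and 0.591% lower in the labelled double knockout, beside 1 of 25 tested host probe sets. An unadjusted p under 0.05, given below beside counts of 0, was reached by 3735 of the 22518 (16.6%). The call held when any 1 array was left out and was lost when probe sets of low signal were kept in the test (adjusted p = 0.0818, same difference). Znfx1, its neighbour on the other strand, read 81.3, 107 and 37.8 in wild type against 79.6, 107 and 97.4 in the labelled double knockout, with overlapping groups (0.35 on the log2 scale, SE 0.269, limma adjusted p = 0.554).

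Snhg6 came next in size among the hosts that did not overlap between groups. Its signals were 507, 892 and 644 in wild type against 1126, 1155 and 1129 in the labelled double knockout. The 3 labelled double knockout arrays lay close together above all wild type arrays, of which replicate 2 was the highest. The log2 difference of 0.76 (SE 0.171) missed the threshold (limma adjusted p = 0.069). Without wild type replicate 2 it was 0.97 and passed (limma adjusted p = 0.0071), and with array weights it was 0.79 and passed (limma adjusted p = 0.040). It did not pass in the other refits, among them those without wild type replicate 1 (0.57, limma adjusted p = 0.121) and without the filter (0.223), and the adjusted p ran up to 0.336.

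Snhg8 read 639, 601 and 688 in wild type against 916, 741 and 926 in the labelled double knockout. Its groups did not overlap, and the log2 difference of 0.41 (SE 0.115) did not pass (limma adjusted p = 0.128). Snhg10 gave 230, 186 and 230 against 266, 257 and 306 on its brightest probe set, again without overlap (log2 difference 0.34, limma adjusted p = 0.225). Its other probe sets overlapped between the groups, with log2 differences of 0.15 and 0.20. Snhg5 read 152, 146 and 152 against 170, 188 and 171 (log2 difference 0.21, SE 0.117, limma adjusted p = 0.402). With Zfas1, these made 5 of 25 tested host probe sets whose arrays were all higher in the labelled double knockout, and 0 of 25 were all lower. Over all tested probe sets 11.5% did not overlap and were higher and 10.7% did not overlap and were lower.

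**Figure D1:**
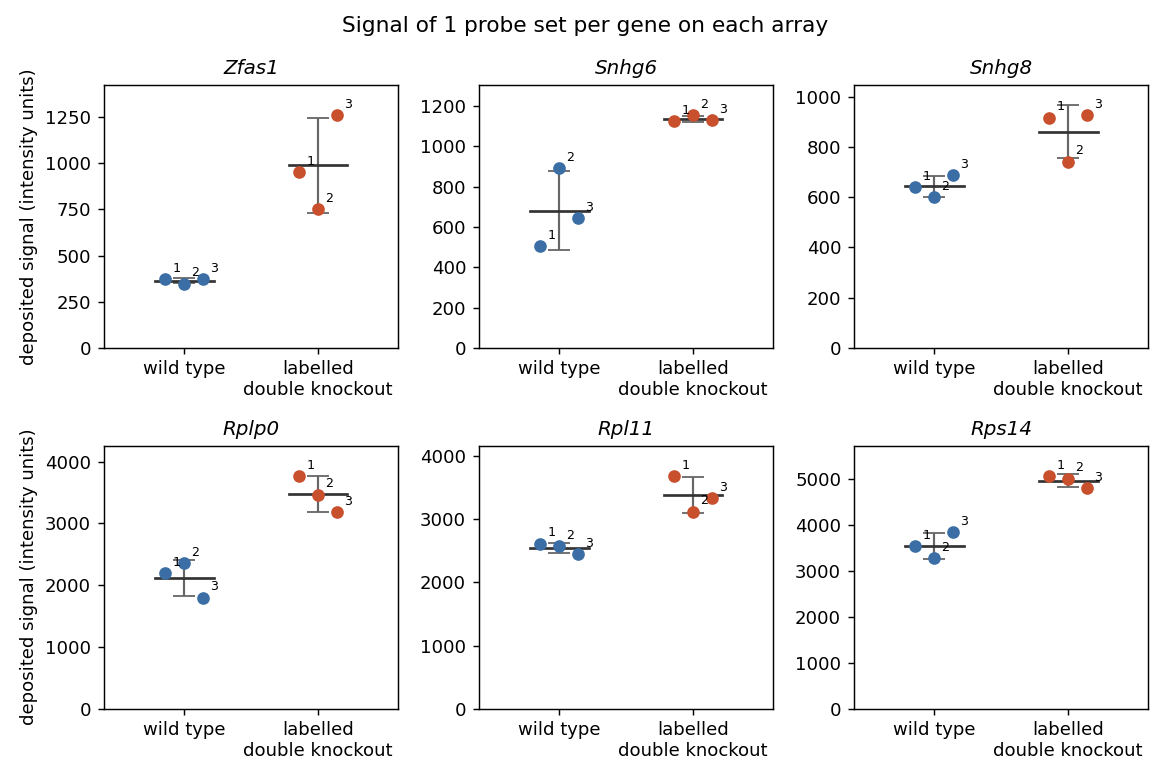
Deposited signal of 1 probe set for each of 3 host RNAs (Zfas1, Snhg6, Snhg8) and 3 ribosomal protein genes (Rplp0, Rpl11, Rps14) on the wild type and labelled double knockout arrays, with vertical axes starting at 0. Points are arrays numbered by replicate, and bars give the mean and SD of 3 arrays; in each panel the lowest labelled double knockout array lies above the highest wild type array, and Zfas1 and Rplp0 are the 2 that passed the test.

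Gas5, a host RNA named for its accumulation in growth-arrested cells, did not behave alike across its 4 tested probe sets. The probe set 1449410_a_at read 1311, 1388 and 1624 in wild type against 1817, 1515 and 2187 in the labelled double knockout (log2 difference 0.34, limma adjusted p = 0.270). On 1419291_x_at the signals were 1318, 1306 and 1432 against 1001, 1616 and 2213 (log2 difference 0.18). Here labelled double knockout replicate 1 was the lowest of all arrays and replicate 3 the highest. On 1436222_at they were 198, 176 and 226 against 57.5, 182 and 206 (log2 difference -0.54), and on 1424843_a_at 267, 265 and 222 against 120, 232 and 292 (log2 difference -0.29). Labelled double knockout replicate 1 was thus the lowest array on 3 probe sets of Gas5 and the second highest on the fourth. None passed the test, and the limma adjusted p-values ran from 0.270 to 0.743.

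Snhg14, the long transcript that runs antisense to Ube3a and carries snoRNA clusters in neurons, was set apart by a single array. On 1436964_at wild type replicate 2 read 1309, and the other 5 arrays read between 107 and 203. The log2 difference of -0.86 (SE 0.678) turned to 0.17 without that array. On 1455087_at the same array was the lowest, with 72.5, 70.4 and 126 in wild type against 102, 108 and 131 (log2 difference 0.33, limma adjusted p = 0.452).

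The remaining tested hosts overlapped between the groups and did not pass. Snhg11 read 3296, 4106 and 4489 against 4361, 4784 and 4724 on its brighter probe set (log2 difference 0.23, and 0.083 after quantile normalization) and differed by 0.06 on the other. Snhg4 read 221, 242 and 322 against 379, 259 and 334 (log2 difference 0.29). The 5 probe sets of Snhg1 had log2 differences between -0.04 and 0.21. Snhg7 and Snhg16 stood at 0.21 and 0.26, Snhg12 at -0.08 and Snhg3 at -0.37 on the same scale. In all, 19 of 25 tested host probe sets were higher and 6 lower, with a median log2 difference of 0.20, beside a median of 0.0093 over all tested probe sets. Per array, the median deviation of the host probe sets from the wild type mean was 0.010, -0.047 and 0.029 in wild type against 0.149, 0.088 and 0.283 in the labelled double knockout, so the 2 groups of medians did not overlap.

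A total of 6 host probe sets were too dim to be tested, among them the only ones of Snhg17 and Snhg18. Snhg17 read 26.1, 25.2 and 31.9 in wild type against 3.39, 15.8 and 5.79 in the labelled double knockout, so every labelled double knockout array lay lower. These signals lie near the pseudocount of 16. Without the filter the log2 difference of Snhg17 was -0.88 and did not pass (limma adjusted p = 0.225). How many dim probe sets did not overlap was not counted. Snhg18 read 32.3, 38.0 and 31.4 against 20.3, 26.6 and 32.9, with overlap.

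Of the ribosomal protein probe sets, 89 of 106 were tested, for 47 of 50 genes, and Rplp0 was the only 1 to pass, beside 1.02% of all tested probe sets. Rplp0 encodes the stalk protein that anchors the Rplp1 and Rplp2 dimers to the large subunit, and it often serves as a reference gene. Its probe set 1419441_at read 2193, 2355 and 1796 in wild type against 3768, 3465 and 3179 in the labelled double knockout. All 3 labelled double knockout arrays were higher than all wild type arrays, of which replicate 3 was the lowest. The log2 difference was 0.72 with an SE of 0.125, a 1.64-fold rise (limma adjusted p = 0.0326). The call was lost after quantile normalization (0.64, limma adjusted p = 0.0524) and without wild type replicate 1 (limma adjusted p = 0.0721). It was lost when dim probe sets were kept in the test (0.150) and without the intensity trend of the fit (0.071). It was also lost without labelled double knockout replicate 1, 2 or 3 (limma adjusted p = 0.103, 0.152 and 0.104), while its size stayed between 0.54 and 0.80 under every alternative run. The stalk protein Rplp2, which binds Rplp0, read 4158, 4243 and 5178 against 5593, 5600 and 5027, with overlap (log2 difference 0.26, SE 0.119, limma adjusted p = 0.309, and 0.040 after quantile normalization).

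In the rest of the large subunit, Rpl11, a protein that also binds Mdm2 when ribosome assembly is disturbed, read 2615, 2570 and 2451 in wild type against 3689, 3122 and 3331 in the labelled double knockout. Its groups did not overlap, and the log2 difference was 0.40 with an SE of 0.103 (limma adjusted p = 0.101). Rpl7 read 1926, 2055 and 2115 against 2767, 2513 and 2495 on 1426162_a_at (log2 difference 0.35, limma adjusted p = 0.128), also without overlap. Rpl4 (4164, 3998 and 4542 against 5475, 5116 and 5068, log2 difference 0.30, limma adjusted p = 0.194, and 0.11 after quantile normalization) was likewise higher on every labelled double knockout array. Rpl41, the smallest ribosomal protein, read 6062, 5294 and 7464 against 7882, 8432 and 7701 on its brightest probe set (log2 difference 0.36, limma adjusted p = 0.225, and 0.11 after quantile normalization). A second probe set of Rpl41 differed by 0.39 with an SE of 0.272 (0.24 after quantile normalization), and its signals spread widely within groups, at 3321, 2810 and 6305 against 4533, 6693 and 4388. Rpl12, which lies at the base of the stalk, was lower on its dim probe set, at 81.5, 83.6 and 77.3 against 74.5, 58.1 and 58.5 (log2 difference -0.29, limma adjusted p = 0.372), without overlap. Rpl38, among the brightest probe sets, read 5410, 6257 and 7440 against 7422, 6607 and 6845, with wild type replicate 3 the highest (log2 difference 0.14, and -0.11 after quantile normalization). Of 40 tested probe sets of the large subunit and stalk, 27 (67.5%) were higher and 13 lower, with a median log2 difference of 0.15. Higher were 51.6% of all tested probe sets and 77.2% of 693 other probe sets with a mean log2 signal above 11. These 693 leave out the members and the probe sets of several symbols with 1 ribosomal protein gene.

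In the small subunit, 37 of 40 tested probe sets were higher and 3 lower, with a median log2 difference of 0.16. Higher were 51.6% of all tested probe sets and 77.2% of the 693 other probe sets with a mean log2 signal above 11. An unadjusted p under 0.05 was reached by 6, beside 16.6% of all tested probe sets, and 0 passed the test (limma, smallest adjusted p = 0.0619). Rps14 came closest. It read 3539, 3271 and 3839 in wild type against 5069, 5011 and 4806 in the labelled double knockout on 1436586_x_at, and 4218, 4707 and 5272 against 6292, 6031 and 5774 on 1437706_x_at. The groups did not overlap on either probe set, and the log2 differences were 0.48 (SE 0.104, limma adjusted p = 0.0619) and 0.35 (SE 0.115, limma adjusted p = 0.175). Without wild type replicate 3 the first of them passed, at 0.54 (limma adjusted p = 0.0309), and its adjusted p ran from 0.0309 to 0.311 over the alternatives. After quantile normalization the differences were 0.32 and 0.11.

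Rps18, a protein of the small subunit head, was higher without overlap on its 3 tested probe sets, with log2 differences of 0.27, 0.28 and 0.25. On 1448739_x_at it read 2589, 2236 and 2414 against 2989, 2793 and 3036 (limma adjusted p = 0.205). Rps29 had the highest deposited signal of the list, although signals of different probe sets are not on a common scale. It read 6159, 7429 and 9082 against 9001, 8367 and 8439 on 1438859_x_at, where wild type replicate 3 was the highest array (log2 difference 0.20, limma adjusted p = 0.518, and -0.04 after quantile normalization). The largest fitted rise of the list belonged to a probe set of Rps9 and rested on 1 array. It read 735, 1096 and 52.8 in wild type against 1172, 1017 and 1019 in the labelled double knockout (log2 difference 1.49, SE 0.798, limma adjusted p = 0.385). The other tested probe set of Rps9 read 2143, 2041 and 2186 against 2322, 2151 and 2099, a log2 difference of 0.04. Rps27, a zinc finger protein of the small subunit, read 214, 73.6 and 66.8 against 98.7, 179 and 220 on a dim probe set with overlap (log2 difference 0.54, SE 0.376). Of the 17 ribosomal protein probe sets that were too dim to be tested, 13 belonged to the small subunit. The only probe set of Rps16 was the dimmest, with no array above 2.18, so it gives no level for that gene.

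The small differences of the ribosomal protein list followed brightness. Over all 89 tested probe sets, 66 were higher and 23 lower, with a median log2 difference of 0.14 beside 0.0093 over all tested probe sets. Of these, 17 (19.1%) were higher without overlap and 5 (5.62%) were lower without overlap, beside 11.5% and 10.7% of all tested probe sets. Of the 56 with a mean log2 signal above 11, which is a signal of 2032, 55 were higher, with a median of 0.17. All 17 rises without overlap lay among these 56 (30.4%), beside 24.5% of the 693 other probe sets above that level. Lower without overlap were 0 of the 56, beside 3.61% of those 693. Of the 33 at or below that level, 11 were higher and 22 lower, with a median of -0.03.

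Other bright probe sets were shifted in the same direction. Of the 693 other probe sets above a mean log2 signal of 11, 535 were higher, with a median log2 difference of 0.13. Here and in the ranges below, the others leave out the ribosomal protein probe sets of several symbols. Between 11 and 11.5 the median was 0.15 for 17 ribosomal protein probe sets and 0.07 for 317 others. Between 11.5 and 12 it was 0.16 for 19 and 0.10 for 205. Above 12 the medians were 0.25 for 20 ribosomal protein probe sets, all of them higher, and 0.25 for 171 others, of which 96.5% were higher. After quantile normalization, which forces the same distribution on every array, the median of the 56 bright ribosomal protein probe sets was 0.046, that of the 693 others was 0.0070, and that of all 89 was 0.025, with 49 higher and 40 lower. Under that normalization the 25 host probe sets had a median of 0.16 and Rplp0 a difference of 0.64, which no longer passed.

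**Figure D2:**
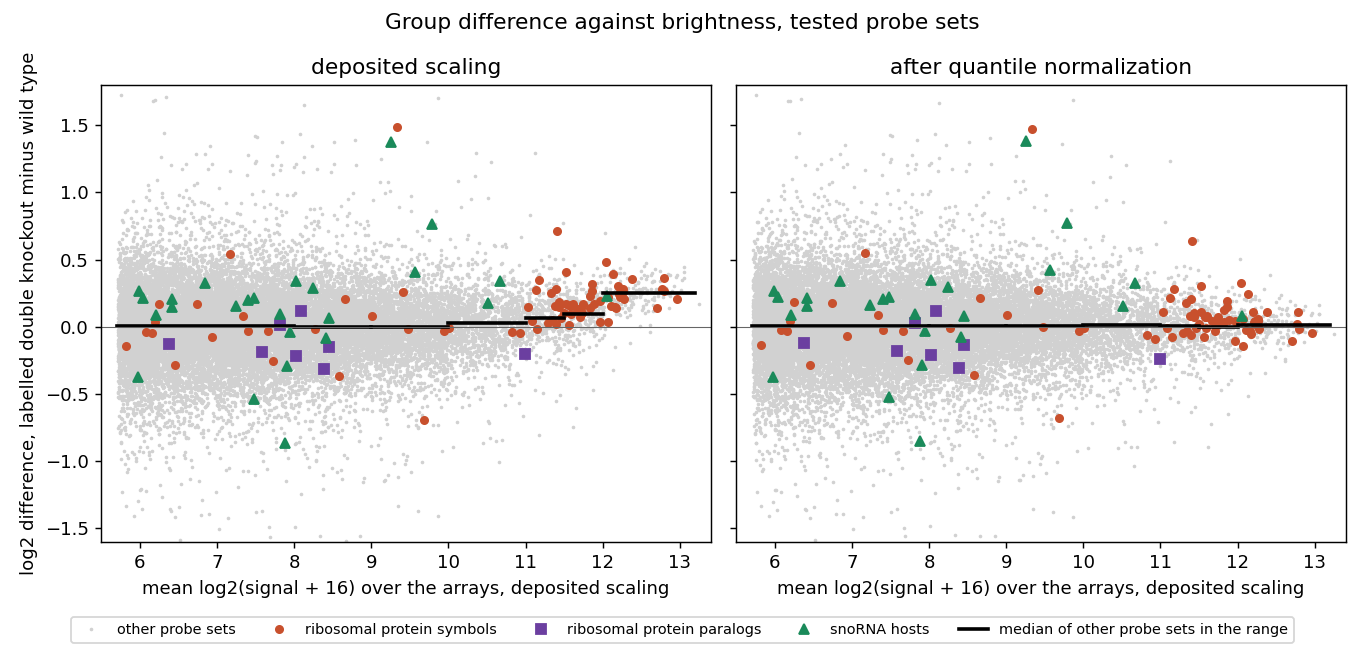
Log2 difference between labelled double knockout and wild type (vertical axis) against mean log2(signal + 16) over 6 arrays (horizontal axis) for the tested probe sets, with the deposited scaling on the left and after quantile normalization on the right. Ribosomal protein symbols, their paralogs and the snoRNA hosts are marked, black lines give the medians of non-member probe sets per brightness range, and 31 non-member probe sets lie beyond the vertical axis in each panel; above 12 the ribosomal protein median of 0.25 falls on the line at 0.25 under the deposited scaling, and both lie near 0 after quantile normalization.

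The arrays did not divide cleanly by label for this list. The median deviation of the 56 bright ribosomal protein probe sets from the wild type mean was -0.105, -0.061 and 0.153 in wild type against 0.288, 0.108 and 0.137 in the labelled double knockout. Wild type replicate 3 thus stood above labelled double knockout replicates 2 and 3. The lowest array was wild type replicate 1 for 32 of these probe sets and wild type replicate 2 for 21, and the highest was labelled double knockout replicate 1 for 40. The 693 other bright probe sets had medians of -0.107, -0.027 and 0.143 in wild type against 0.133, 0.156 and 0.10 in the labelled double knockout. The 2 arrays that were highest for ribosomal proteins within their groups were those with the high Ttr signal, and without both the median over all 89 was 0.15, beside 0.14 with all arrays. That of the hosts was then 0.17, and Rplp0 had a difference of 0.54 (limma adjusted p = 0.102). Leaving out any 1 array moved the ribosomal protein median between 0.077, without wild type replicate 1, and 0.21, without wild type replicate 3. It was 0.091 without labelled double knockout replicate 1. The Gapdh ratios given above also separated the groups while the Actb ratios overlapped, and their part in these shifts was not tested.

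**Figure D3:**
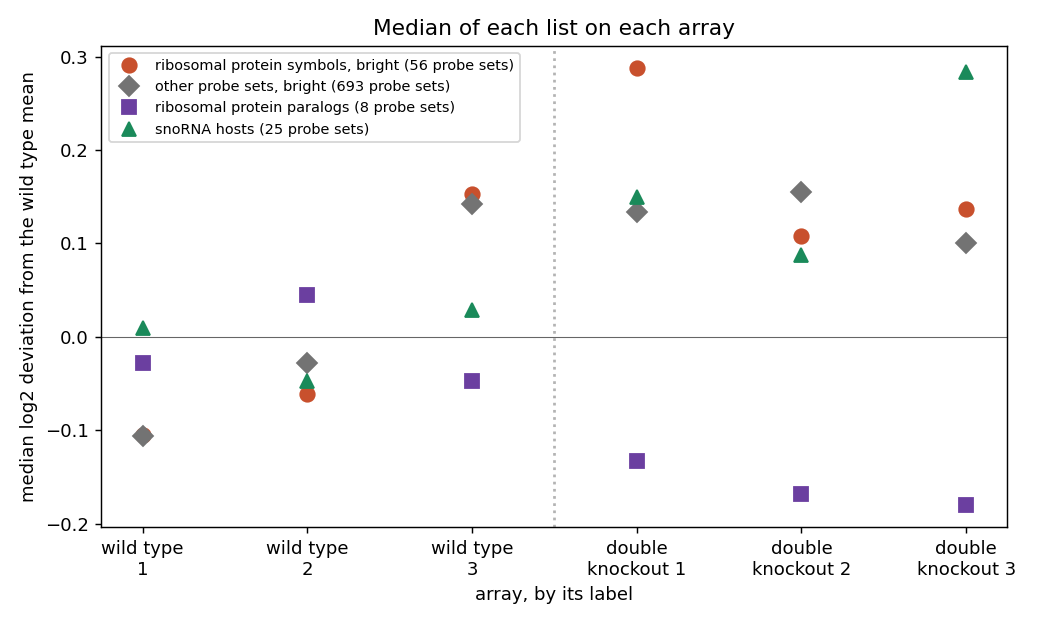
Median log2 deviation from the wild type mean on each of the 6 arrays for 56 bright ribosomal protein probe sets, 693 other bright probe sets, 8 probe sets of ribosomal protein paralogs and 25 snoRNA host probe sets. Each point is the median of 1 list on 1 array; wild type replicate 3 reaches 0.153 for bright ribosomal proteins and 0.143 for other bright probe sets, above several labelled double knockout arrays, while the paralogs lie lower on every labelled double knockout array.

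The paralogs, variant copies of ribosomal protein genes, were mostly lower. Of 8 tested probe sets of 4 genes, 6 were lower and 2 higher, with a median log2 difference of -0.17, and 0 passed the test (limma, smallest adjusted p = 0.230; 1 had an unadjusted p under 0.05, beside 16.6% of all). Of these, 3 were lower without overlap, beside 10.7% of all tested probe sets. The array medians were -0.028, 0.045 and -0.047 in wild type against -0.133, -0.169 and -0.180 in the labelled double knockout. All 8 were dimmer than the bright range, and quantile normalization left their median at -0.16. The 33 ribosomal protein probe sets at or below a mean log2 signal of 11, paralogs included, leaned the same way. Of them 22 were lower, with a median of -0.03. The 8 paralog probe sets are part of these 33, so this count is no separate comparison. Array medians of the 33 were -0.101, 0.133 and -0.043 in wild type. In the labelled double knockout they were -0.0073, -0.128 and -0.109, with overlap. Outside the paralogs, Rpl12 and Rps19bp1 were also lower without overlap.

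Rps27l, a p53-responsive copy of Rps27, read 326, 396 and 356 in wild type against 319, 265 and 274 in the labelled double knockout on 1435429_x_at (log2 difference -0.31, SE 0.120, limma adjusted p = 0.230). It was lower without overlap on 1423254_x_at as well (295, 243 and 255 against 234, 223 and 218, log2 difference -0.22). On 1450925_a_at it read 378, 343 and 341 against 303, 297 and 357, with overlap (log2 difference -0.15). The 3 probe sets share a gene and are not independent. Rpl22l1 read 1971, 2124 and 2418 against 1945, 1750 and 1953 (log2 difference -0.20, SE 0.109, limma adjusted p = 0.391), where the highest labelled double knockout array lay just under the lowest wild type array. Rpl22, its main copy, which is known to repress it, differed by 0.26, 0.08 and -0.05 on 3 probe sets, all with overlap. Rpl7l1 differed by 0.11, 0.01 and -0.13, and Rps4l by -0.19. Rpl39l and Rpl3l, known from testis and from muscle, were too dim to be tested, with no array above 19.2. Rps19bp1, the binding protein, read 226, 213 and 210 against 173, 174 and 189, lower without overlap (log2 difference -0.26, SE 0.112, limma adjusted p = 0.291).

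Probe sets of the same gene did not always share a sign. Of 25 member genes with at least 2 tested probe sets, 12 had differences of both signs, among them 9 of 20 ribosomal protein genes. Some of these signs rest on differences far smaller than their SE, such as -0.01 (SE 0.105) for Rpl27 and -0.02 (SE 0.106) for Rpl35. The share over all genes was not counted. Rpl7 was higher on 2 probe sets and lower on another. That probe set, 1426163_x_at, read 559, 1321 and 1487 in wild type against 645, 570 and 693 in the labelled double knockout, and wild type replicate 1 lay among the labelled double knockout values. Its log2 difference was -0.69 (SE 0.294, limma adjusted p = 0.277), and without wild type replicate 1 it was -1.12 and passed (limma adjusted p = 0.0192). Rps10 ranged from 0.11 to -0.37 over 5 tested probe sets, the lowest at 337, 463 and 478 against 393, 307 and 277 (limma adjusted p = 0.296). Of 114 tested member probe sets, 18 varied more than 2-fold between the highest and lowest array, and the share over all tested probe sets was not counted. IDs ending in _x_at or _s_at mark probes that may also bind other transcripts, which matters for a family with many processed pseudogenes. The 48 ribosomal protein probe sets without such an ending had a median log2 difference of 0.15 and the 41 with one had 0.14.

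**Figure D4:**
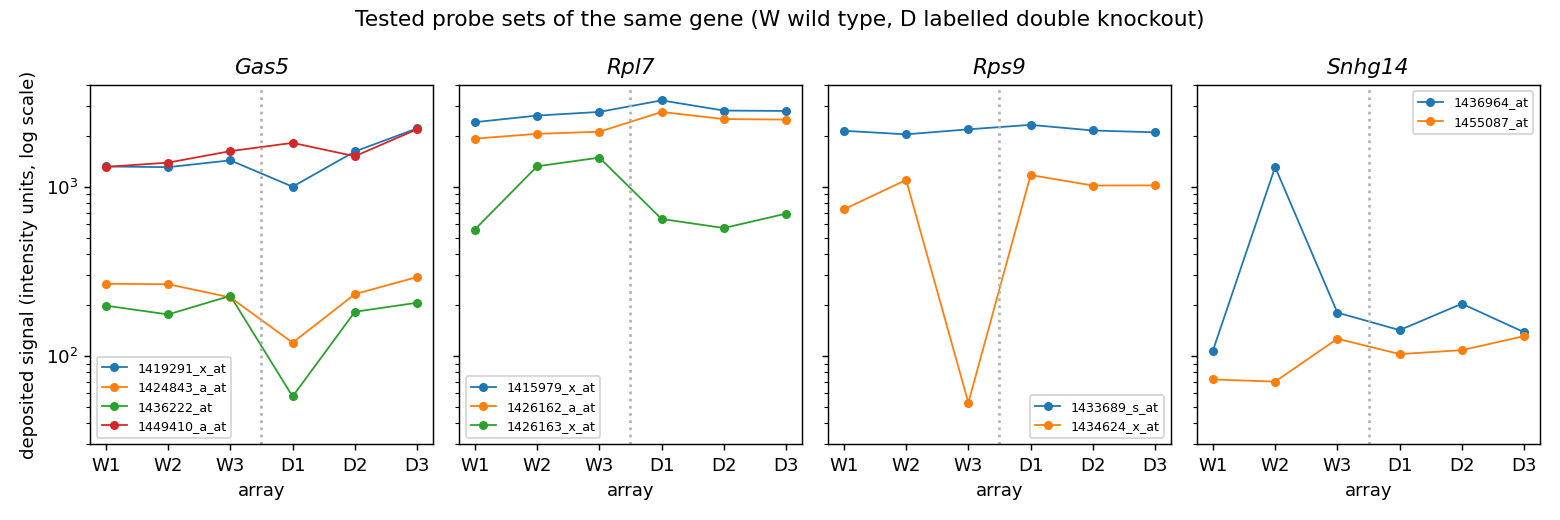
Deposited signal on a log axis of every tested probe set of Gas5, Rpl7, Rps9 and Snhg14 on the 3 wild type arrays (W1 to W3) and the 3 arrays labelled double knockout (D1 to D3). Each line joins the values of 1 probe set; single arrays set some of them apart, such as 52.8 on W3 for Rps9, 1309 on W2 for Snhg14 and 57.5 on D1 for Gas5.

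Related genes of translation were read from lists, with 1 probe set per gene. Of 20 measured genes for translation factors and other TOP messages, 16 were higher and 4 lower, and 0 passed limma's test, with 2 at an unadjusted p under 0.05, beside 16.6% of all tested probe sets (median log2 difference 0.14, and 0.054 after quantile normalization). Eef1a1, the elongation factor that brings transfer RNA to the ribosome, read 6211, 6260 and 8581 against 8197, 8580 and 8260 (log2 difference 0.27, and 0.0014 after quantile normalization). Fau, whose product contains a small subunit protein, differed by 0.21. Of 35 genes of ribosome biogenesis and snoRNA-protein particles, 19 were higher and 16 lower, 0 passed (limma, 5 at an unadjusted p under 0.05, beside 16.6% of all), and the median was 0.0081. Ubtf, the factor that opens ribosomal DNA to polymerase I, was closest to the threshold, at 501, 500 and 452 against 321, 274 and 360 (log2 difference -0.59, SE 0.121, limma adjusted p = 0.0548), without overlap. Ncl, the nucleolar protein nucleolin, read 1380, 1574 and 1623 against 1867, 1996 and 1810 (log2 difference 0.31, limma adjusted p = 0.184). Utp4 and Dkc1 fell by more than Ncl rose, at -0.38 and -0.36 (limma adjusted p = 0.138 and 0.269).

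Of 12 measured genes of nonsense-mediated decay, which degrades several host RNAs, 8 were higher and 4 lower, with a median of 0.079 and 0 passing (limma, 0 at an unadjusted p under 0.05). Of 16 genes of mTORC1 and the S6 kinases, 7 were higher and 9 lower, with a median of -0.07 and 0 passing (limma, 6 at an unadjusted p under 0.05, beside 16.6% of all tested probe sets). Rps6ka3 read 564, 661 and 412 against 319, 358 and 346 (log2 difference -0.63, limma adjusted p = 0.098), and Rps6ka5 read 118, 135 and 174 against 228, 203 and 249 (0.63, limma adjusted p = 0.092). These kinases of the Rsk and Msk families were lower and higher, respectively, on every labelled double knockout array. Eif4ebp1, Rptor and Rheb were lower, by -0.61, -0.37 and -0.25 (limma adjusted p = 0.135, 0.184 and 0.301). Mlst8 was higher, by 0.36 (limma adjusted p = 0.265). Of 76 mitochondrial ribosomal proteins, 47 were higher and 29 lower, with a median of 0.038 and 0 passing (limma, 11 at an unadjusted p under 0.05, beside 16.6% of all). Of 4 other noncoding snoRNA hosts, Meg3 read 4107, 3901 and 5471 against 5890, 7524 and 6816 (log2 difference 0.59, limma adjusted p = 0.101; 0.39 after quantile normalization), and Rian, Dancr and Mirg differed by -0.35, -0.03 and -0.01.

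Of the cell type markers, read from lists in the same way, only Aqp4 passed the test. Of 9 neuronal markers 7 were higher, with a median log2 difference of 0.22, and 0.021 after quantile normalization. Of 5 oligodendrocyte markers 4 were higher (median 0.16, and 0.099 after quantile normalization), and of 5 endothelial markers 3 were higher (median 0.0056). All 10 microglial markers were lower, with a median of -0.46, though 0 passed (limma, 6 at an unadjusted p under 0.05, beside 16.6% of all tested probe sets), and their summed signal was 4875, 4033 and 4198 in wild type against 3956, 3021 and 3169 in the labelled double knockout. The astrocyte water channel Aqp4 fell from 970, 972 and 958 to 592, 392 and 500 (log2 difference -0.96, SE 0.138, limma adjusted p = 0.0139). Astrocyte markers were mixed, with 5 of 7 lower and a median of -0.12. The other 2, Slc1a3 and Slc1a2, were higher by 0.38 and 0.23 (0.37 and -0.01 after quantile normalization). The summed signal of the 3 choroid plexus markers that were tested (Ttr, Folr1 and Clic6, of 7 listed) was 139, 417 and 10702 in wild type against 4757, 95.2 and 78.5 in the labelled double knockout, and Ttr made most of it on the high arrays. The part of these markers in the differences of host RNAs, ribosomal proteins and paralogs was not tested.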

How the data were processed

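The deposited values are linear intensity signals per probe set, which the authors had summarised and scaled. The trimmed mean (2% off each end) was 150.0 on each array, so differences in total RNA cannot be seen. The software and build are not given in the sources used here. All columns were used. Signals under 1 were set to 1 (4.35% of values), log2(signal + 16) was taken, and probe sets above the median of the mean log2 signal (22518 of 45037, besides 64 controls) entered a limma 3.58.1 fit under R 4.3.3 (group as the only term, intensity trend), with p-values adjusted by Benjamini-Hochberg over all of them. An exact test of 3 against 3 arrays cannot go below 0.1 and was not used. The fit was tested on simulated data. Groups came from the sample descriptions; the title of labelled double knockout replicate 1 has the wild type wording. The members, gene lists and rule for named genes were chosen with earlier results of these data known. The rule names every host probe set, members past the threshold, the 6 largest other rises and 6 largest falls, paralog pairs, the brightest 4 genes and the dimmest, and members of other lists past the threshold. Rpl4, Rps18, Rplp2 and the genes named from other lists without passing were added after their values were seen. The lists are not independent support. Alternatives were pseudocounts, normalizations, filters, trend and weight settings, the replicate block, thresholds, probe set choices and left-out arrays. Symbols and promoter windows came from RefSeq tables of GRCm38.p6. Figures were drawn with matplotlib 3.10.9.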

Additional observations from a re-analysis of the deposited data

How the results depend on the processing

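Of 49 named probe sets, 35 kept their sign in each refit that tested them (18, or 17 where the stricter filter left them out) and 44 never changed their side of the threshold. The count over all probe sets (229) was 10 without the filter, 131 without the intensity trend, 586 at an adjusted p of 0.1, 12 without wild type replicate 1 and double knockout replicate 2, 78 without wild type replicate 3 and double knockout replicate 1 (chosen after seeing the data), and 34 to 292 with 1 array left out. The count of ribosomal protein probe sets (1, Rplp0) was 0 after quantile normalization, without the filter, without the trend and without either pair of arrays, 2 at an adjusted p of 0.1, and 0 to 2 with 1 array left out; without wild type replicate 1 the 1 call was Rpl7, lower. Their median (0.14) was 0.025 after quantile normalization. The count of hosts (1, Zfas1) was 0 without the filter, which tests more probe sets, 2 with array weights, 2 at 0.1, and 1 to 2 with 1 array left out. Replicate numbers are shared between groups, and the same-number correlations of deviations were -0.147, 0.001 and -0.101. No shared deviation of same-number arrays was seen, but with 3 arrays per group this cannot tell whether they were handled in pairs. With the replicate block, 182 probe sets passed, 1 of them a ribosomal protein (median 0.14) and 1 a host (median 0.20). The other 14 named probe sets changed sign when 1 array or a pair of arrays was left out, without passing the threshold either way, and the cause was not tested. Over all refits Gas5 ran from -0.085 to 0.52 (1419291_x_at), -0.54 to 0.054 (1424843_a_at) and -0.83 to 0.051 (1436222_at), and Snhg1 from -0.058 to 0.26 (1433675_at), -0.026 to 0.20 (1437658_a_at) and -0.16 to 0.039 (1439399_a_at). Snhg11 (1437311_at) ran from -0.081 to 0.17, Snhg12 from -0.19 to 0.086 and Snhg14 (1436964_at) from -1.71 to 0.17. Rpl22 ran from -0.17 to 0.66 (1416603_at), -0.071 to 0.16 (1448398_s_at) and -0.11 to 0.0030 (1453118_s_at), Rpl39 from -0.24 to 0.20 and Rpl7l1 (1452049_at) from -0.049 to 0.11. Dim probe sets lie near the pseudocount, where differences are understated.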

Other observations

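Probe sets that list several symbols with 1 ribosomal protein gene among them were read apart from the members, since a signal cannot be assigned to 1 gene. Of 107, 95 were tested, 82 were higher and 13 lower in the labelled double knockout, with a median log2 difference of 0.20 and 0 past the threshold (limma, smallest adjusted p = 0.123; 26 had an unadjusted p under 0.05, beside 16.6% of all tested probe sets). After quantile normalization their median was 0.076. Their array medians were -0.095, -0.048 and 0.152 in wild type against 0.303, 0.123 and 0.152 in the labelled double knockout, so wild type replicate 3 again stood among the labelled double knockout arrays.

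Some members share a chromosome with the targeted genes. By gene order in GRCm38.p6, 6 protein-coding genes lie between Egr1 and Snhg4, 221 between Egr1 and Rps14, and 535 between Egr3 and Rps24. The tested probe sets of Rps24 had log2 differences between 0.02 and 0.07, and all overlapped between the groups. Snhg4 differed by 0.29 with overlap, and Rps14 by 0.48 and 0.35 without overlap on either probe set. These did not pass the test, and a part of gene position in them was not tested.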
